A study of Mus musculus with 6 samples.

Results

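The genes described here handle thyroid hormone or respond to it in the newborn mouse cortex. There are 9 of them: the binding protein gene Crym, the transporter genes Slco1c1 and Slc16a10, the deiodinase genes Dio2 and Dio3, the receptor genes Thra and Thrb, and the response genes Klf9 and Hr. They were chosen by function with results of this comparison already known, so the differences and calls given for them are descriptions and support nothing. Every probe set whose only gene symbol was one of these was taken. This gave 22 probe sets of the 45037 analysed, for 8 of the 9 genes, out of 18193 genes in all. Dio3 was not analysed here, since no probe set carried its symbol alone.

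The series compared D6/Zbtb20S transgenic mice with wildtype littermates, all of the C57BL/6 strain and all at postnatal day 1. Zbtb20 encodes a repressor with zinc fingers that acts in hippocampal pyramidal neurons, and the labels describe the dissected transgenic tissue, retrosplenial cortex dissected along with subiculum, as transformed to CA1, a field of the hippocampus. Each genotype had 3 Affymetrix arrays, each of RNA pooled from 7 animals. D6 names the regulatory element in the transgene, and the labels give neither the cells in which it is active nor the number of founder lines. They also do not say whether the pools came from separate litters, so every error given is the spread between these pools, which may in part be technical.

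Thyroid hormone reaches the brain mostly as the prohormone thyroxine, which transporters carry across the blood-brain barrier and into cells. The type 2 deiodinase, made in the brain largely by astrocytes and related glia, turns thyroxine into the active hormone triiodothyronine, and the type 3 deiodinase inactivates both. Triiodothyronine binds nuclear receptors that sit on target genes with a retinoid X receptor partner, and binding exchanges corepressors for coactivators. In the cytosol the hormone can be held by mu-crystallin, the product of Crym.

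Among the 22 probe sets, 1 rose in D6/Zbtb20S tissue, that of Crym, and 3 fell, 2 of Dio2 and 1 of Klf9, at a limma adjusted p under 0.05 over all probe sets. The remaining 18 did not pass. Over all probe sets, 3.4% were called higher and 2.11% lower. The groups did not overlap on 1 member probe set where D6/Zbtb20S was higher and on 5 where it was lower, beside 11.9% and 11.8% of all probe sets. The median log2 difference was -0.08 over the 22 probe sets and -0.02 over all probe sets, and the members ran from -2.15 to 2.25. With 1 probe set per gene, the brightest, 1 of 8 genes was higher (Crym) and 2 were lower (Dio2 and Klf9), beside 4.06% and 3.64% of all genes. Because the members were chosen with this contrast in view, nothing is read from these counts.

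**Figure D1:**
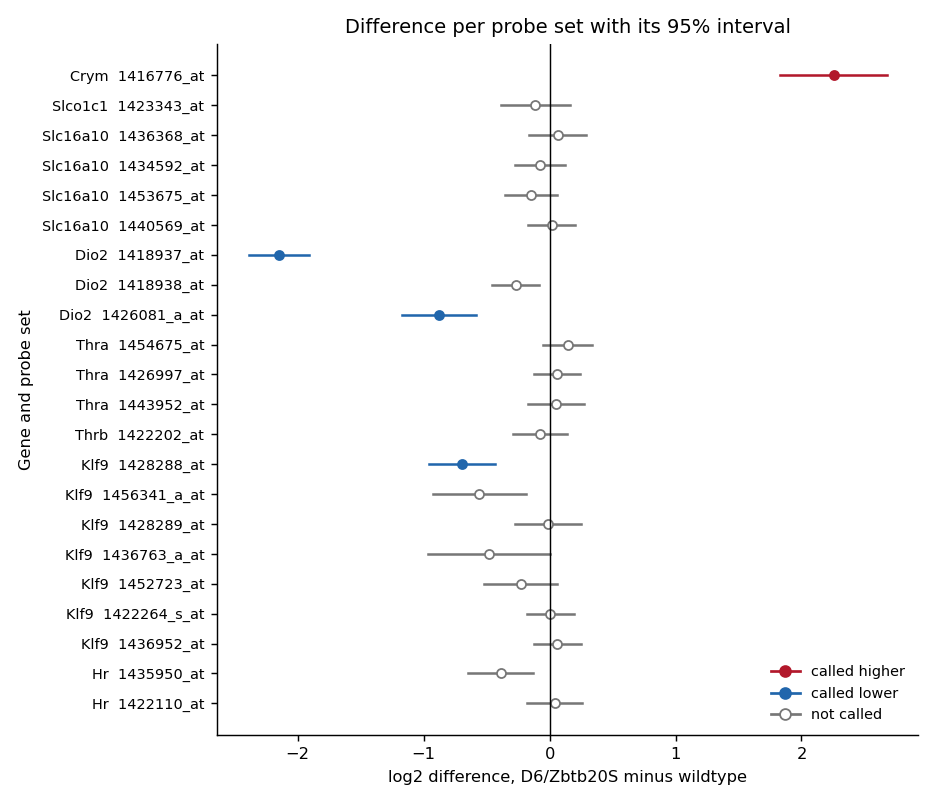
The log2 difference of D6/Zbtb20S minus wildtype is plotted for each of the 22 probe sets, with its 95% interval from the limma fit and 3 arrays per group. Crym lies at 2.25 and 1 Dio2 probe set at -2.15, while all other probe sets lie between -0.88 and 0.14.

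The promoters of Dio2 and Klf9 are shown because probe sets of these genes were called lower, 2 of 3 for Dio2 and 1 of 7 for Klf9. Dio2 is known to be induced through cyclic AMP, and Klf9 by the hormone receptors. The set of RefSeq promoter sequences used here (GRCm38.p6) had entries for 6 of the members, 7 windows in all, and none for Crym, Thra and Hr. In each sequence the 250 bases before the annotated start run 5′ to 3′ on the gene's own strand, and capitals mark a cyclic AMP response element, TGACGTCA. The Dio2 window is chr12:90739039-90739288, minus strand, and that of Klf9 is chr19:23140976-23141225, plus strand.
Dio2: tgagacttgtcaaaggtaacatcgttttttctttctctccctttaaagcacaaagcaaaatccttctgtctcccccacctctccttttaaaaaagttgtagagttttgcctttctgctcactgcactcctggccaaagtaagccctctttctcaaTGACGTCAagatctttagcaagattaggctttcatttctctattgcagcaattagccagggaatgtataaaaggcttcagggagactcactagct
Klf9: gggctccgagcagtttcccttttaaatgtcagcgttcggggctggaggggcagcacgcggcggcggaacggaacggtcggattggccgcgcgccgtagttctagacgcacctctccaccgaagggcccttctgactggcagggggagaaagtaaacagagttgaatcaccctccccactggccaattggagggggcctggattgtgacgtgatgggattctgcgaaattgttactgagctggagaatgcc
The Dio2 window held 1 element on the gene's strand, from 95 to 88 bases before the start, and the Klf9 window held none. The element occurs on either strand in 1.55% of the 32851 windows of this length. The half-site of nuclear receptors, AGGTCA, was found in neither window, and of the members' windows only 1 of Thrb held it, 184 to 179 bases before the start, beside 14% of all windows. Its direct repeat, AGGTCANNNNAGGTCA, which contains the half-site, occurred in no member's window and in 0.0152% of all windows. GC content was 41.6% for Dio2 and 59.6% for Klf9. These are matches of exact letters within the windows, and no binding was measured. Sequence beyond the 250 bases was not searched, so elements lying elsewhere could not be found.

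Crym had the mean difference of the largest size among the members, 2.25 against -2.15 for the brightest Dio2 probe set. Without wildtype replicate 2 the order was reversed, at 2.03 against -2.07. Mu-crystallin binds triiodothyronine in a manner that depends on the cofactor NADPH, and its gene is a marker of some cortical and hippocampal neurons. Its log2 signal on probe set 1416776_at was 8.42, 7.80 and 8.54 in wildtype replicates 1, 2 and 3, and 10.43, 10.40 and 10.70 in the D6/Zbtb20S replicates. All transgenic arrays lay above all wildtype arrays, and the wildtype arrays were spread more widely, with replicate 2 the lowest. The wildtype mean was 8.25 ± 0.39 and the D6/Zbtb20S mean 10.51 ± 0.17 (SD, n = 3 each), a log2 difference of 2.25 ± 0.18 (SE). This is 4.77-fold, with a 95% interval of 3.56- to 6.39-fold. Crym was called in every fit that left out 1 array, with differences from 2.03 to 2.40, but not in an ordinary linear model without shared variance.

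The genes whose profiles over the 6 arrays were most like that of Crym, among the 265 genes that differed at least 2-fold, were Sertm1 (Pearson's r = 0.999), the Notch ligand gene Dll1 (0.999), Gm20754 (0.995), the plasma membrane calcium pump gene Atp2b1 (0.993) and the phosphodiesterase gene Pde1c (0.993). All were higher in D6/Zbtb20S, by 2.58, 1.27, 1.50, 1.18 and 1.20 on the log2 scale in that order. The gap between genotypes sets most of each coefficient. Within wildtype, replicate 2 was the lowest array for each of the 5 genes, as it was for Crym.

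Slco1c1 encodes a thyroxine transporter of brain capillaries and astrocytes. Its log2 signal was 8.12, 8.47 and 8.38 in the wildtype arrays and 8.26, 8.03 and 8.33 in the D6/Zbtb20S arrays. The groups overlapped, and the lowest and the highest array were 1 of each genotype. The difference was -0.11 ± 0.12 (95% interval -0.39 to 0.16), and it passed in none of the 15 other settings tried.

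Slc16a10 encodes an aromatic amino acid transporter that also carries thyroid hormone. Its 4 probe sets all lay under the array median in both groups, where RMA values compress changes. Their differences were 0.07, -0.07, -0.15 and 0.02, with overlapping groups on each, and none was called. On the brightest, 1436368_at, the arrays read 3.41, 3.61 and 3.60 in wildtype and 3.47, 3.61 and 3.73 in D6/Zbtb20S.

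Dio2, the activating deiodinase, was lower in D6/Zbtb20S tissue on each of its 3 probe sets, and 2 of them passed the threshold. On 1418937_at the wildtype arrays read 7.15, 7.50 and 7.37 and the D6/Zbtb20S arrays 5.23, 5.10 and 5.24. The groups were far apart, and the transgenic arrays lay close together. The means were 7.34 ± 0.18 (SD, n = 3) and 5.19 ± 0.08 (SD, n = 3), a log2 difference of -2.15 ± 0.11 (SE), or 4.43-fold lower with a 95% interval of 3.75- to 5.24-fold. This probe set was called in all 15 other settings, and the differences without 1 array ran from -2.24 to -2.07.

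The other Dio2 probe sets were dimmer and differed less. On 1426081_a_at the arrays read 4.80, 4.62 and 4.69 in wildtype and 3.68, 3.69 and 4.11 in D6/Zbtb20S. The transgenic arrays lay under the others, replicate 3 nearest to them, and the transgenic mean was under the array median. The means, 4.70 ± 0.09 and 3.83 ± 0.25 (SD, n = 3 each), differed by -0.88 ± 0.13, or 1.84-fold (95% interval 1.50- to 2.25-fold). The call was lost only in the ordinary linear model.

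On 1418938_at the Dio2 values were 5.01, 5.10 and 5.18 in wildtype and 4.82, 4.86 and 4.80 in D6/Zbtb20S. The groups did not overlap there either. Its difference of -0.27 ± 0.08 (95% interval -0.45 to -0.09) was not called, except with array weights. The 3 probe sets thus agreed in sign, with intervals that did not overlap one another. The mean of the 3 fell by 1.10 ± 0.07. Which parts of the Dio2 transcript the probe sets read was not used here.

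**Figure D2:**
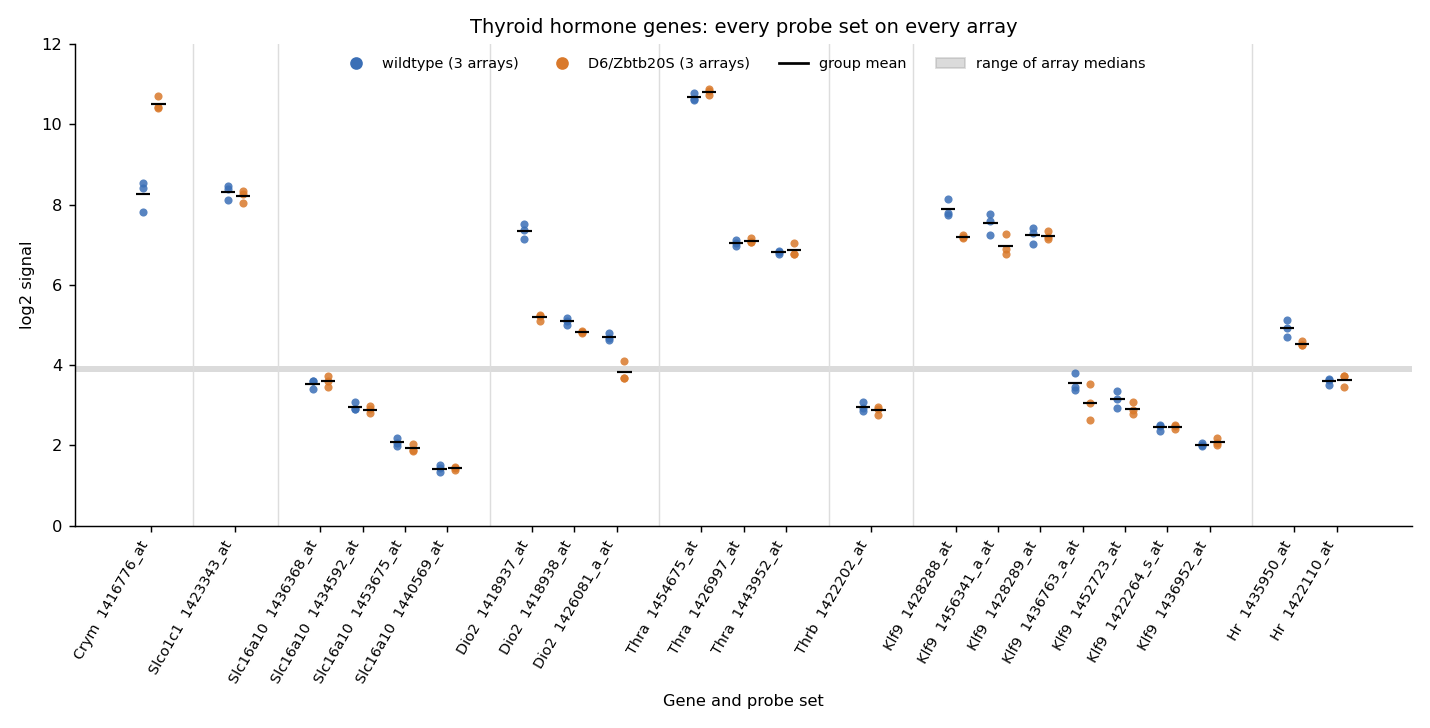
Each point is 1 array's log2 signal for a member probe set, with wildtype and D6/Zbtb20S side by side and bars at the group means. On Crym the transgenic arrays, at 10.40 to 10.70, lie above the wildtype arrays at 7.80 to 8.54; on the brightest Dio2 probe set they lie at 5.10 to 5.24 against 7.15 to 7.50.

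In bulk tissue fewer cells of a type and less RNA per cell cannot be told apart, so the members were read beside markers of the cells that could carry them. Of 9 markers of astrocytes and radial glia, cells in which Dio2 and Slco1c1 are known to be active, 0 were called in the limma fit. Gfap alone had an unadjusted p under 0.05, at 0.56 ± 0.21 higher. Over all genes, 4.06% were called higher and 3.64% lower, and 10.6% and 9.72% passed the unadjusted limma p. The groups did not overlap on 2 of the 9 markers, Gfap and Fabp7, both higher in D6/Zbtb20S, beside 2339 of 18193 genes. Of the 9 differences, 7 were positive and 2 negative. The log2 of the 9 markers' summed linear signal was 12.53 to 12.66 in wildtype and 12.64 to 12.65 in D6/Zbtb20S, overlapping ranges. Fabp7, the brightest of them, made up 58.9% to 63.1% of that sum, so it mostly tracks this gene; the median difference over the 9 markers, which weights them equally, was 0.09. Endothelial markers, the other site of Slco1c1, gave 0 calls of 7 and none with an unadjusted p under 0.05. Their median was -0.02, and their sums were 9.60 to 9.78 in wildtype and 9.33 to 9.65 in D6/Zbtb20S. Itm2a made up 65.6% to 69.9% of the endothelial sum. The part of astrocyte number in the Dio2 difference was not tested.

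Other marker lists held called genes, beside 4.06% of all genes called higher and 3.64% lower. Among 7 microglial markers 3 rose, Cx3cr1 by 0.87, Tyrobp by 0.69 and Fcrls by 0.55, with summed signals of 8.76 to 8.89 in wildtype and 9.10 to 9.40 in D6/Zbtb20S. Among 7 markers of the oligodendrocyte lineage 4 fell, Olig1, Olig2, Cnp and Mbp, and the sums were 9.89 to 10.13 and 9.39 to 9.54. GABAergic neuron markers had 1 fall of 7, Gad1 at -0.60, with sums of 9.69 to 9.82 and 9.39 to 9.50. In these 3 lists the sums of the groups did not overlap, but the brightest marker weighed on each sum. Csf1r made up 48.6% to 54.7% of the microglial sum and Gad1 32.6% to 42.9% of the GABAergic one. Olig1 made up 33.7% to 39.6% of the oligodendrocyte lineage sum. The median differences were 0.40 for microglial, -0.51 for oligodendrocyte lineage and -0.14 for GABAergic markers. Of the GABAergic differences 6 were negative and 1 was positive, Dlx1 at 0.14. The part of these cell types in the members' differences was not tested.

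Markers of cortical excitatory neurons, the main cells of the labelled tissue, lay above the array median in at least 1 group for 7 of 7. Of these, Neurod2 rose by 1.12. The deep-layer factor gene Tbr1 and the vesicular glutamate transporter gene Slc17a6 fell, with differences of -1.41 and -1.26. The summed signal overlapped at 10.98 to 11.19 in wildtype and 10.94 to 11.16 in D6/Zbtb20S, and Neurod6 made up 42.6% to 50.5% of it. Crym, a neuronal gene, was measured against this background, and the part of cell identity in its rise was not tested. Markers of choroid plexus and meninges gave 0 calls of 6 each, beside 4.06% of all genes called higher and 3.64% lower. None of either had an unadjusted limma p under 0.05, beside 10.6% of all genes higher and 9.72% lower. Choroid plexus sums were 6.60 to 7.25 in wildtype and 6.43 to 7.29 in D6/Zbtb20S, and meningeal sums 9.17 to 9.79 and 8.92 to 9.87. Kl, Folr1, Otx2 and Kcnj13 of the choroid plexus list lay under the array median in both groups.

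**Figure D3:**
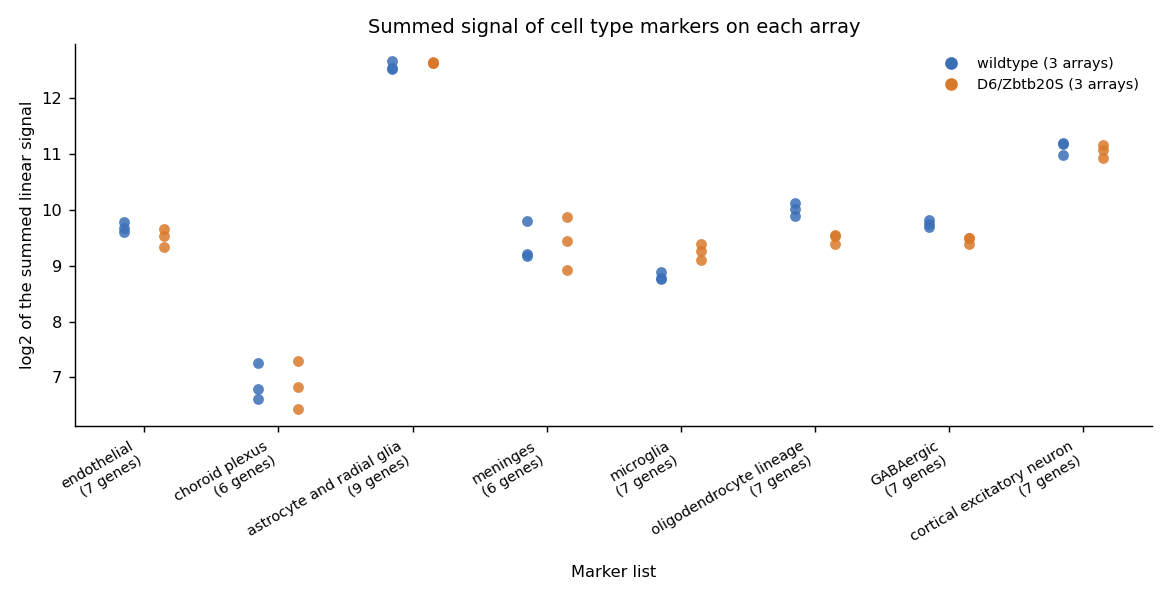
The log2 of the summed linear signal of each cell type's markers is shown for each of the 6 arrays. Oligodendrocyte lineage and GABAergic sums are lower in all 3 D6/Zbtb20S arrays and microglial sums are higher, while the astrocyte, endothelial, choroid plexus, meningeal and excitatory neuron sums overlap between groups.

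The receptor genes showed no called difference. Thra, which encodes the main receptor of the brain and a splice form that does not bind hormone, was bright on 1454675_at, at 10.62, 10.79 and 10.61 in wildtype and 10.84, 10.87 and 10.74 in D6/Zbtb20S. The groups overlapped narrowly there, wildtype replicate 2 lying above D6/Zbtb20S replicate 3. The difference was 0.14 ± 0.09, with a 95% interval of -0.05 to 0.34. The other Thra probe sets, 1426997_at and 1443952_at, differed by 0.06 ± 0.08 and 0.05 ± 0.10 with overlapping arrays.

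Thrb, the receptor of cochlea, retina and pituitary feedback among other sites, had 1 probe set, which lay under the array median in both groups. Its arrays read 2.94, 3.08 and 2.85 in wildtype and 2.77, 2.96 and 2.91 in D6/Zbtb20S, which overlap. The difference of -0.08 ± 0.09 (95% interval -0.29 to 0.14) was not called.

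Klf9, a zinc finger factor gene that the liganded receptors induce directly in neurons and glia, was read by 7 probe sets, and 1 of them fell. On 1428288_at the arrays read 7.80, 8.15 and 7.73 in wildtype and 7.23, 7.16 and 7.20 in D6/Zbtb20S. The groups did not overlap, and the transgenic arrays differed little among themselves. The means were 7.89 ± 0.23 (SD, n = 3) and 7.20 ± 0.04 (SD, n = 3), a difference of -0.70 ± 0.12, or 1.62-fold lower with a 95% interval of 1.35- to 1.95-fold. The call was lost without D6/Zbtb20S replicate 2 (difference -0.68), in the ordinary linear model and at a threshold of 0.01.

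A second Klf9 probe set, 1456341_a_at, read 7.24, 7.77 and 7.58 in wildtype and 6.78, 6.88 and 7.25 in D6/Zbtb20S. D6/Zbtb20S replicate 3 lay level with wildtype replicate 1, so the groups overlapped. Its difference of -0.56 ± 0.16 (95% interval -0.93 to -0.19) was not called, but it passed in 6 of the 15 other settings, among them the fits without wildtype replicate 1 (-0.70) and without D6/Zbtb20S replicate 3 (-0.70).

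The third bright Klf9 probe set, 1428289_at, showed no such gap. It read 7.02, 7.29 and 7.41 in wildtype and 7.20, 7.14 and 7.35 in D6/Zbtb20S, a difference of -0.01 ± 0.11 (95% interval -0.27 to 0.25). The other 4 lay under the array median in both groups and differed by -0.48, -0.23, 0.01 and 0.06. The mean over all 7 probe sets, -0.27 ± 0.09, was not called. The Klf9 fall therefore rests on the probe set chosen.

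Hr encodes a corepressor of nuclear receptors and is itself induced by the hormone. On 1435950_at its signal was 4.70, 5.12 and 4.92 in wildtype and 4.50, 4.49 and 4.59 in D6/Zbtb20S. The transgenic arrays all lay under the wildtype arrays. The difference of -0.39 ± 0.11 (95% interval -0.64 to -0.13) was not called, though it passed in 3 of the 15 other settings. The other Hr probe set, 1422110_at, lay under the array median in both groups, with a difference of 0.04 ± 0.10.

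Wildtype replicate 3 stood apart from the other wildtype arrays on Zbtb20 itself, reading above them on all 9 Zbtb20 probe sets. Wildtype replicate 2 was the lowest wildtype array on each of these probe sets, as it was for Crym. On 1422064_a_at, the only one called, the wildtype arrays read 6.44, 5.84 and 7.64 and the D6/Zbtb20S arrays 8.88, 9.10 and 8.94, a difference of 2.33 ± 0.37. Without wildtype replicate 3 the called members differed by 2.40 (Crym), -2.13 and -0.88 (Dio2) and -0.78 (Klf9), and all kept their calls. The members' values in wildtype replicate 3 lay between those of the other wildtype arrays on the called Dio2 probe sets, and were the highest for Crym and the lowest for Klf9. Array medians were 3.83 to 3.91 in wildtype and 3.83 to 3.97 in D6/Zbtb20S. The difference of 3′ minus 5′ actin control signal, a measure of RNA quality, ranged from 0.53 to 1.31 in wildtype and from 0.80 to 0.91 in D6/Zbtb20S. The highest value, 1.31, was that of wildtype replicate 3, while wildtype replicates 1 and 2 read 0.53 and 0.88.

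Beyond the members, 26 other genes that carry the hormone, transport it, make or turn over deiodinases, or act with its receptors were listed, and 23 were measured. Of these, 2 rose, 1 fell and 20 did not pass, beside 4.06% of all genes called higher and 3.64% lower. The median difference was -0.05 against -0.02 over all genes. The calls were small, and each was lost in some fits that left out 1 array.

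Among 4 transporters, Slc7a5 fell. It encodes the light chain of a large neutral amino acid transporter that also accepts thyroid hormone. Its arrays read 8.23, 8.11 and 8.06 in wildtype and 7.78, 7.75 and 7.80 in D6/Zbtb20S, which did not overlap. The difference was -0.36 ± 0.08 (limma adjusted p = 0.0243), and of the 6 fits without 1 array it passed only in that without wildtype replicate 3 (-0.39).

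Slc3a2, the heavy chain that pairs with it, differed by -0.24 ± 0.09 (adjusted p = 0.158). Slc7a8, the light chain of a related transporter, differed by -0.31 ± 0.09 (adjusted p = 0.0746). Neither was called, although their arrays did not overlap either, the transgenic ones being lower. Slco1a4, an organic anion transporter of the blood-brain barrier, differed by 0.01 ± 0.11. The carrier protein gene Ttr, a product of the choroid plexus, varied more within groups than between them. It read 4.95, 5.50 and 6.46 in wildtype and 4.51, 5.67 and 6.46 in D6/Zbtb20S, rising from replicate 1 to 3 in both.

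Among the receptors' 3 retinoid X partners, Rxrg rose. Its log2 signal was 4.16, 3.82 and 4.17 in wildtype and 4.58, 4.67 and 4.38 in D6/Zbtb20S. The groups did not overlap, and the difference was 0.49 ± 0.12 (limma adjusted p = 0.0311). The call was lost without wildtype replicate 2 (0.38), without D6/Zbtb20S replicate 1 (0.48) or 2 (0.43), with quantile normalization (0.47), and when p was adjusted over all probe sets. Rxra and Rxrb differed by -0.03 and -0.08 and were not called.

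Among 5 coactivators, Ncoa1, a steroid receptor coactivator of the nuclear receptors, rose. Its arrays read 8.43, 8.47 and 8.37 in wildtype and 8.80, 8.88 and 8.71 in D6/Zbtb20S, without overlap. The difference was 0.37 ± 0.08 (limma adjusted p = 0.0192); its other 2 probe sets were not called, and the call was lost without wildtype replicate 2 (0.40) and without D6/Zbtb20S replicate 1 (0.37) or 2 (0.33), with equal array medians (0.36), and when its probe sets were averaged (0.25). Of the 4 measured corepressor genes 0 were called by limma on their brightest probe sets, and 1 had an unadjusted p under 0.05, Tbl1x (-0.20 ± 0.07), whose other 2 probe sets were called higher. Of 5 genes for the synthesis or turnover of deiodinases, among them Secisbp2 for selenocysteine insertion and the Dio2 ubiquitin ligase gene Wsb1, 0 were called by limma, and 0 had an unadjusted p under 0.05. Dio1, the deiodinase of liver and kidney, lay under the array median in both groups.

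A second list held 16 other genes known to respond to thyroid hormone in brain, and 14 were measured. Of these, 5 fell, 9 did not pass and 0 rose, beside 3.64% of all genes called lower and 4.06% higher. At an unadjusted limma p under 0.05, 8 were lower and 0 higher, beside 9.72% and 10.6% of all genes. The median difference was -0.29 against -0.02 over all genes, and 5 of the 14 lay under the array median in both groups. Mbp is also among the oligodendrocyte lineage markers and Nrgn among those of cortical excitatory neurons. Like the members, this list and the handling list were chosen with earlier results of these data known, so nothing is read from their counts.

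Camk4, a calcium-dependent kinase gene that the hormone induces in developing neurons, fell most. It read 8.58, 8.62 and 8.98 in wildtype and 6.98, 6.88 and 7.32 in D6/Zbtb20S on its brightest probe set. The groups were well apart, with replicate 3 the highest of each. The difference was -1.66 ± 0.14, or 3.17-fold lower (limma adjusted p = 8.6e-05); its other 4 probe sets were dimmer and not called, and the mean of all was -0.51.

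Nefm, the medium neurofilament chain of axons, fell to a like degree. Its single probe set read 8.38, 8.21 and 8.12 in wildtype and 6.66, 6.68 and 6.85 in D6/Zbtb20S. These groups were again far apart, and the difference was -1.51 ± 0.10, or 2.85-fold lower (limma adjusted p = 1.7e-05). Nefh, the heavy chain, lay under the array median in both groups and differed by 0.03.

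Dbp, a clock-controlled transcription factor gene, fell on both of its probe sets. The brighter read 5.11, 5.37 and 5.19 in wildtype and 4.79, 4.62 and 4.62 in D6/Zbtb20S. The groups did not overlap, and the difference was -0.54 ± 0.09 (limma adjusted p = 0.00692). Shh, the gene of the morphogen Sonic hedgehog, read 4.46, 4.52 and 4.85 against 3.99, 4.07 and 4.14, also without overlap. Its difference of -0.54 ± 0.11 (limma adjusted p = 0.0144) lost its call without D6/Zbtb20S replicate 1 (-0.50). Its other probe set, under the array median, differed by -0.06, and the mean of both by -0.30.

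Mbp, the gene of myelin basic protein, read 6.90, 6.99 and 7.05 in wildtype and 6.47, 6.41 and 6.52 in D6/Zbtb20S on its brightest probe set. It fell by 0.51 ± 0.08 (limma adjusted p = 0.00354), and 4 of its 8 probe sets were called lower, with a mean difference over all 8 of -0.33. Mbp is also in the oligodendrocyte lineage list, whose summed signal was lower in all D6/Zbtb20S arrays; the part of that in the Mbp difference was not tested.

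The others of the response list were not called on their brightest probe sets, although Stard4 and Aldh1a3 were each called lower on 1 dimmer probe set. Nrgn, the synaptic protein neurogranin, differed by -0.47 ± 0.16 (adjusted p = 0.126), and Stard4, a cholesterol transfer protein, by -0.30 ± 0.09 (adjusted p = 0.0903). Reln, the gene of the secreted positional signal reelin, read 9.94, 9.95 and 10.11 in wildtype and 10.07, 9.99 and 10.04 in D6/Zbtb20S, a difference of 0.04 ± 0.08. Thus the list held members with falls of over 1 on the log2 scale and bright members whose groups overlapped.

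**Figure D4:**
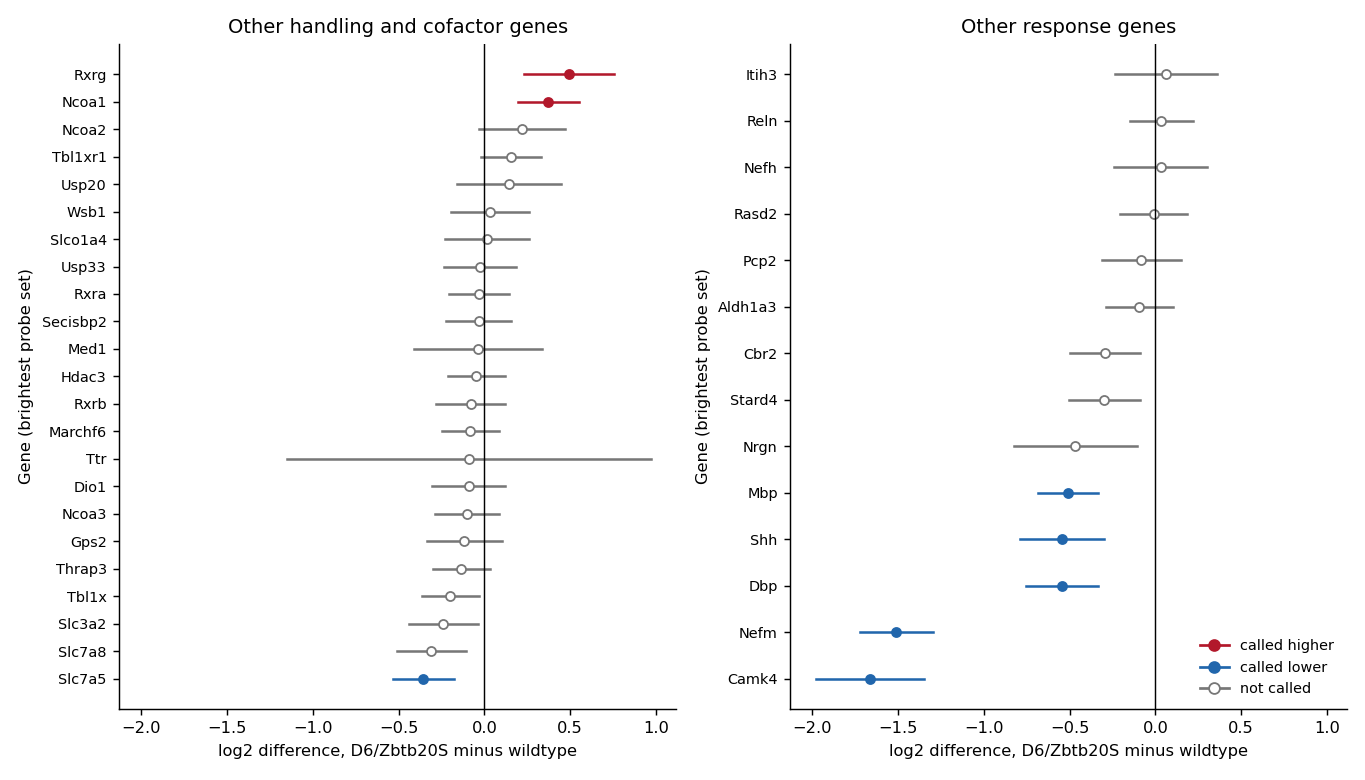
The log2 difference of D6/Zbtb20S minus wildtype, with its 95% interval, is plotted for the other handling and cofactor genes and for the other response genes, 1 probe set per gene. Called genes of the first group lie between -0.36 and 0.49; the 5 called response genes all lie below 0, at -0.51 to -1.66.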

How the data were processed

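Affymetrix 3′ arrays of 3 wildtype and 3 D6/Zbtb20S pools of 7 animals gave 1 deposited log2 value per probe set and array. The submitters' processing notes name RMA and limma without versions; the annotation and genome build are not given in the sources used here. The values' range was that of log2 signals, and any last scaling or centring of the deposited values stays unknown. Detection calls were not used here, and 3 arrays per group limit precision.

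Of 45101 probe sets, 64 controls were left out. GEO's platform annotation gave 34945 probe sets 1 symbol and 932 several, and 9160 were unnamed; those with several named no gene. All 8 measured member genes matched RefSeq's gene table by gene ID, with the same symbol. For 18193 genes the probe set with the highest mean represented the gene. Dio3 and some genes of the other lists were not analysed here.

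Differences, D6/Zbtb20S minus wildtype, were fitted in R 4.3.3 with limma 3.58.1 (lmFit, eBayes without trend, no covariates), with Benjamini-Hochberg adjustment over all probe sets, or over all genes where genes are counted. A call is an adjusted p under 0.05; ± after a difference is its standard error. A probe set under the array median is one whose group mean lies there. The fit was tested on simulated data. Python 3.11.15 with matplotlib 3.10.9 drew the figures.

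The members and lists were chosen with earlier results of these data known. By the rule for naming genes, all members are described with every probe set, and every called gene of the handling and response lists is named; further genes were chosen after their values were seen. Alternatives were array weights, a replicate block, omission of each array, equal medians, quantile normalization, an ordinary linear model, an intensity trend, probe sets kept only if 3 or more arrays exceeded their median, averaging a gene's probe sets, and thresholds of 0.01 and 0.1.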

Additional observations from a re-analysis of the deposited data

How the results depend on the processing

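No called difference of a member, or of a handling or response gene called on its brightest probe set, changed sign under the alternatives run. Single marker genes, and dimmer probe sets of the handling and response genes, were not rerun. Over all genes, same-numbered arrays did not deviate together (correlations -0.215, 0.175 and -0.00814), and 2 of 6 arrays matched their own number best. The numbers were not taken as pairs. A replicate block gave 5 member probe sets called instead of 4, and 3 member genes as before. It gave 2 handling genes instead of 3 and 6 response genes instead of 5. Array weights called 8 member probe sets, 5 handling and 8 response genes. The ordinary linear model called 1 member probe set, 1 member gene, 0 handling genes (8 at an unadjusted p under 0.05) and 2 response genes, and Crym, at 2.25, missed the threshold. At a threshold of 0.01, 0 handling genes were called by limma (6 unadjusted). Leaving out 1 array gave 0 to 3 handling genes, with 0 without wildtype replicate 2 or D6/Zbtb20S replicate 1 or 2 (5, 6 and 4 unadjusted), and 3 to 6 member probe sets. Of all probe sets, 2484 were called, against 3304 with a replicate block and 4710 with array weights. The ordinary linear model called 200 (43.5% of them higher, against 61.7%), a threshold of 0.01 1062, and leaving out 1 array 1162 to 2881. Of all 18193 genes, 1402 were called, against 1343 with a replicate block and 2707 with array weights. The ordinary linear model called 267 genes and a threshold of 0.01 called 693. Leaving out 1 array gave 777 to 1539 genes. Another scaling moved the median of all probe sets by less than 0.1. Probe sets under the array median limit what can be read for Slc16a10, Thrb and 4 of 7 Klf9 probe sets.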

Other observations

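Probe sets of the same gene disagreed for Tbl1x, which encodes a subunit of the corepressor complex of the hormone receptors. Its brightest probe set, 1455042_at, read 8.19, 8.19 and 8.15 in wildtype and 8.03, 7.94 and 7.97 in D6/Zbtb20S and was not called (-0.20 ± 0.07). Its other 2 probe sets were called higher in the limma fit over all probe sets, 1434643_at by 0.92 ± 0.12 (adjusted p = 0.00322) and 1434644_at by 1.34 ± 0.17 (adjusted p = 0.00288), both from wildtype means under the array median. On 1434644_at the wildtype arrays lay between 2.61 and 3.02 and the D6/Zbtb20S arrays between 3.99 and 4.57.

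For the coactivator gene Ncoa2, 1 of 4 probe sets was called higher, and it was not the brightest. Stard4 was called lower on 1429239_a_at, with a difference of -0.96 ± 0.10 (adjusted p = 0.000942), with means of 3.99 ± 0.15 in wildtype and 3.04 ± 0.05 in D6/Zbtb20S (SD, n = 3 each), while its brighter probe sets differed by -0.30 and -0.04. Aldh1a3, a retinoic acid synthesis gene, was called lower on 1448789_at (-0.93 ± 0.10, adjusted p = 0.00169), which lay under the array median in both groups. These probe sets were chosen after their values were seen.

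Dio3os, a noncoding RNA gene beside Dio3, had 1 probe set, with means of 3.99 ± 0.009 in wildtype and 3.98 ± 0.005 in D6/Zbtb20S (SD, n = 3 each), a difference of -0.01 ± 0.07 that was not called. It says nothing of the level of Dio3.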
